A study of Mus musculus with 6 samples.

Results

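Cytochrome P450 families 2 and 3 (CYP2 and CYP3) were followed in mouse liver cells over weeks 0, 2 and 7. Members were the protein-coding genes whose symbol joins Cyp2 or Cyp3 to a subfamily letter and a number and that had at least 10 deposited counts in 1 library, a rule that used no difference between weeks. It kept 45 of the 54446 genes in the table, 36 of CYP2 and 9 of CYP3, out of 57 protein-coding symbols of these families. The other 12 were under the minimum, and 10 of them had 0 counts in every library. By subfamily there were 13 members in Cyp2c, 9 in Cyp3a, 7 in Cyp2d, 4 in Cyp2a, 3 each in Cyp2b and Cyp2j, and 1 each in Cyp2e, Cyp2f, Cyp2g, Cyp2r, Cyp2s and Cyp2u. Cyp3a16, Cyp3a41b and Cyp3a57 had under 10 counts in both week 0 libraries and entered through a later week. All 45 also passed the filter on low counts that preceded testing.

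Poly-A RNA was sequenced from 6 libraries, 2 for each of weeks 0, 2 and 7. The treatment is given in the title of the series, as MET/CAT with SB transposase. SB stands for Sleeping Beauty, an enzyme that pastes a transposon into the genome. CAT is not spelled out in the labels, and the share of cells that carried the construct, the way it was delivered, and the age and sex of the mice are unknown from the labels. The strain is labelled as a mix of FVB/N and a C57BL strain whose number rises by 2 from each listed sample to the next, from C57BL/6 in week 0 replicate 1 to C57BL/16 in week 7 replicate 2, so the background of the samples after the first is unsure. No untreated mice stand beside weeks 2 and 7, so treatment and elapsed time cannot be told apart, and nothing in the labels says that the 2 libraries of a week came from separate mice. The p-values therefore set the differences between weeks only against the spread between these libraries, which may be technical.

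The week 2 libraries carried 13236 and 12804 counts of Xist, the RNA of the inactive X chromosome, and 0 counts of Eif2s3y, Ddx3y, Uty and Kdm5d from the Y chromosome. The other 4 libraries had 0 to 15 counts of Xist and 1897 to 2303 of Ddx3y. Week 2 thus had the transcripts of female mice and weeks 0 and 7 those of male mice, and in both comparisons with week 2 the week and the sex cannot be told apart. Week 7 against week 0 is the only comparison between libraries of the same type. Totals ran from 49353453 to 58434358 counts per library. Hepatocyte markers (Alb, Apoa1, Ttr and Tat) summed to 86523 to 87002 CPM (defined below) at week 0, 107020 to 113135 at week 2 and 74193 to 74510 at week 7. Of 8 markers of other organs, Cdx2 of intestine, Umod and Slc12a1 of kidney, Sftpc of lung and Krt5 of skin were at 0 in all 6 libraries, and Vil1, Scgb1a1 and Omp reached at most 0.150, 0.148 and 0.293 CPM.

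P450 enzymes are heme proteins of the endoplasmic reticulum that insert an oxygen atom into fats, steroids, drugs and toxins, with electrons passed on by the reductase Por. Families 2 and 3 hold most of the drug-oxidising P450s of liver, and in rodents they expanded by repeated gene duplication into clusters of close copies. In mouse liver many of them differ between males and females, a pattern set by the rhythm of growth hormone release and its factors Stat5b, Bcl6 and Cux2, and the nuclear receptors CAR (Nr1i3) and PXR (Nr1i2) switch on Cyp2b10 and Cyp3a11. Several are also zonal within the liver lobule, such as Cyp2e1 around the central vein and Cyp2f2 around the portal vein.

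The close copies limit what single members can show. The coding sequences of Cyp3a41a and Cyp3a41b (GENCODE M21) differed at 2 of 1512 aligned bases, and 82.9% of the 150-base stretches of Cyp3a41a transcripts, the length of 1 read, also occurred in Cyp3a41b, so their reads can hardly be separated and their sum is given below. Cyp2a4 and Cyp2a5 differed at 23 of 1482 bases, and 4.22% of the 150-base stretches of Cyp2a4 occurred in Cyp2a5. Within Cyp2c, Cyp2c40 was 98.1% identical to Cyp2c68 and 97.9% to Cyp2c69. Of the 150-base stretches, 20.3% of Cyp2c40, 20.2% of Cyp2c69, 13.0% of Cyp2c67 and 8.83% of Cyp2c68 occurred in another gene of the 2 families. How the authors assigned reads that fit several genes is unknown. A stretch of the Cyp2a4 and Cyp2a5 coding sequences (bases 580 to 669 from the start codon) is printed because these near copies had unlike levels. Capitals mark the 5 bases that differ.
Cyp2a4: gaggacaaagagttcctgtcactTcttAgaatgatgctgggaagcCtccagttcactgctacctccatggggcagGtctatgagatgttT
Cyp2a5: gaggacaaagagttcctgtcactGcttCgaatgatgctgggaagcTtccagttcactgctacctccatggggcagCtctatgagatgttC

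The regions upstream of the start of 6 members are printed because close copies among them had unlike levels (values below). They are RefSeq reference sequences of GRCm38.p6, on the gene's strand, from 250 to 51 bases before the annotated start. Capitals mark a match to AGGTCA, a nuclear receptor half-site, or to CAAAGTCCA, a form of the HNF4 site, and in the first pair also the 2 bases at which Cyp2b9 and Cyp2b13 differ. The first 3 are of Cyp2b members, at chr7:26173159-26173358, chr7:26061245-26061444 and chr7:25897408-25897607, all on the plus strand.
Cyp2b9: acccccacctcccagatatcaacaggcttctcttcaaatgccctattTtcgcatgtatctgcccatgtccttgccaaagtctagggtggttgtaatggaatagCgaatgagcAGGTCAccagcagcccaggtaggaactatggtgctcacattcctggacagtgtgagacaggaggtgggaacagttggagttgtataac
Cyp2b13: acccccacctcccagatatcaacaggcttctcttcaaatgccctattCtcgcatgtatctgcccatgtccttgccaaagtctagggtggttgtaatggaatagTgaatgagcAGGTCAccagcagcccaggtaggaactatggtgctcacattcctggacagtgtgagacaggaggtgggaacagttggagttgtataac
Cyp2b10: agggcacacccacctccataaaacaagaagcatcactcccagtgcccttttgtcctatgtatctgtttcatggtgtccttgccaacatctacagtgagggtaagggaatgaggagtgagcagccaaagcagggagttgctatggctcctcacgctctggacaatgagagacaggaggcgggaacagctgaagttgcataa
AGGTCA began 138 bases before the start of both Cyp2b9 and Cyp2b13. Cyp2b10, which differed from Cyp2b9 at 43 of 190 aligned bases, held none of the searched motifs in this window. The next 3 are of Cyp3a members, at chr5:145469774-145469973, chr5:145720187-145720386 and chr5:145805925-145806124, all on the minus strand.
Cyp3a16: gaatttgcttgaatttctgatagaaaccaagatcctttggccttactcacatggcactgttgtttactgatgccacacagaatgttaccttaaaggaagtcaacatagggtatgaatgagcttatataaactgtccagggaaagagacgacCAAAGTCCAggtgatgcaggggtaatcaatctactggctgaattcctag
Cyp3a41a: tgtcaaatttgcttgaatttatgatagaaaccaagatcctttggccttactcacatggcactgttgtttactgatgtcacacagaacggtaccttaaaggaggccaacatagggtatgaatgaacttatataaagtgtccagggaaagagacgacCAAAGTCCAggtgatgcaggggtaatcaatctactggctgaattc
Cyp3a44: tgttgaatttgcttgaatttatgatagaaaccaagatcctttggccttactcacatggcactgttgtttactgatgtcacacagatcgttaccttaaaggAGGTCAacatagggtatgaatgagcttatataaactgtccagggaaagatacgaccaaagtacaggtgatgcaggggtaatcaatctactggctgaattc
Cyp3a41b was identical to Cyp3a41a over these 200 bases. CAAAGTCCA began 99 bases before the start of Cyp3a16 and 95 before that of Cyp3a41a, and AGGTCA began 150 bases before that of Cyp3a44.

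Over the full 300-base entries (250 before to 50 after the start, both strands), which 39 of the 45 members have, AGGTCA was present in 15 members (38.5%) against 18.1% of 27025 promoters. CAAAGTCCA was present in 9 members (23.1%) against 0.555%, namely Cyp2c40, Cyp2c67, Cyp2c68, Cyp2c69, Cyp2c70, Cyp3a11, Cyp3a16, Cyp3a41a and Cyp3a41b. ATCAAAG, a TCF/LEF site, was present in 2 (Cyp2c29 and Cyp2c39) against 4.29% of promoters, and TTCNNNGAA, the spaced STAT site, in 0 against 9.55%. No searched motif contains another. The 9 promoters come from only 2 clusters of copies, so they are not independent of each other, and a match is a stretch of letters, not a measured binding site.

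Levels are given in CPM (counts scaled to a common library size), scaled by TMM factors, as mean ± SD over the 2 libraries of a week. A gene was called where the adjusted p of edgeR's quasi-likelihood test, corrected over 15368 genes, was under 0.05. In week 7 against week 0, 14 of the 45 members were called higher, beside 7.58% of all genes tested, and 9 lower, beside 6.23%. The median log2 difference over the members was 0.08, against 0.00 over all genes. Among members called higher, 9 differed by over 2-fold, and among those called lower, 0 did. In week 2 against week 0, 22 were called higher (9.81% of all genes) and 14 lower (8.81%), 17 and 4 of them by over 2-fold, with a median log2 difference of 0.12 against 0.01. With total counts in place of TMM the split of all genes in that comparison moved from 1508 higher and 1354 lower to 2007 and 913, while that of the members was 22 and 12. In week 7 against week 2, 13 were called higher (10.1%) and 22 lower (9.73%), 3 and 17 by over 2-fold. The share of all genes called at over 2-fold was not worked out. The counts over 2-fold in the 3 comparisons therefore have no base rate beside them. The 3 comparisons share libraries, so their counts are not independent. Cyp3a16, Cyp3a41b and Cyp3a57 met the count minimum only through a later week, so they could hardly be called lower than at week 0. All of them are among those called higher at week 2 than at week 0, and Cyp3a16 also among those higher at week 7. They are likewise among those called lower at week 7 than at week 2.

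**Figure D1:**
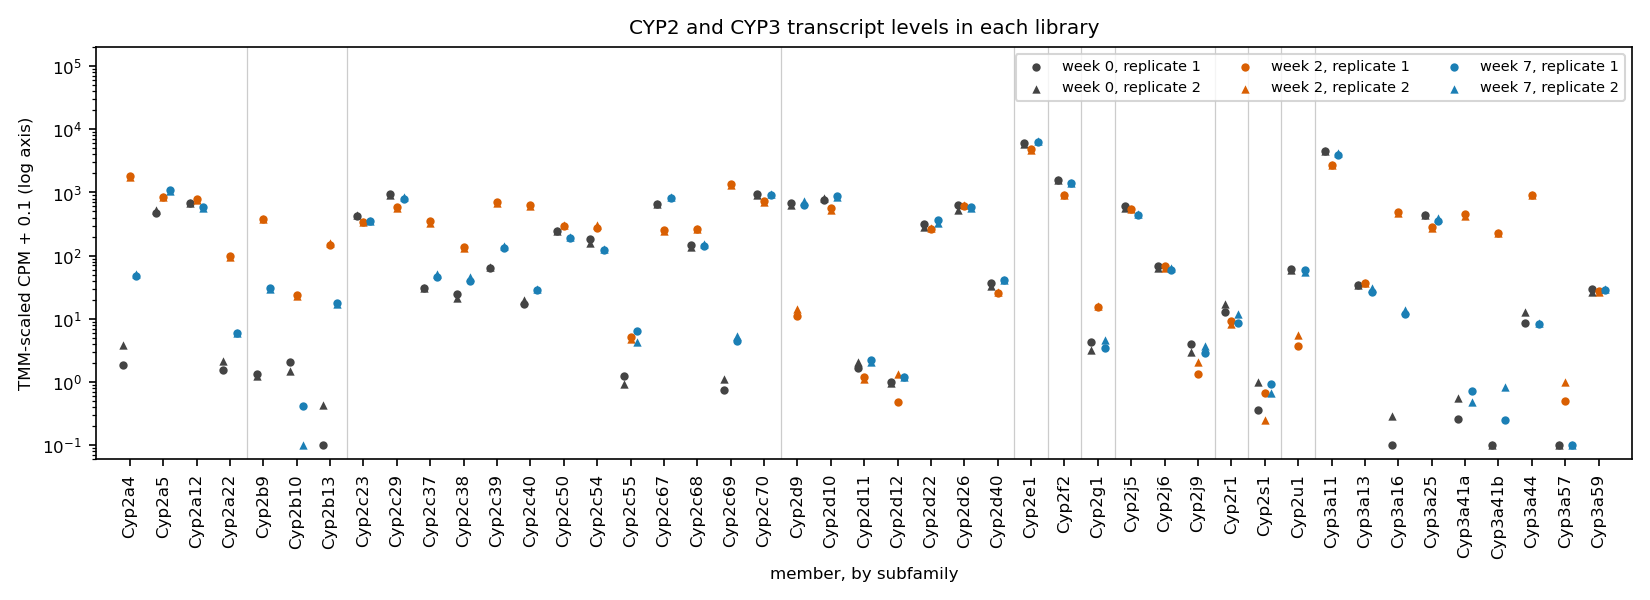
TMM-scaled CPM plus 0.1 (log axis) of the 45 members in each of the 6 libraries, with 1 point per library and members ordered by subfamily. Week 2 stands far from weeks 0 and 7 in Cyp2a4, Cyp2c69, Cyp3a16, Cyp3a41a, Cyp3a41b and Cyp3a44 (high) and in Cyp2d9 and Cyp2u1 (low), and week 7 lies between weeks 0 and 2 in Cyp2a4, Cyp2b9, Cyp2b13 and Cyp3a16.

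With TMM scaling, the summed level of all members was within 1.12-fold of week 0 at the later weeks. It was 20527 ± 238 CPM in week 0, 22989 ± 271 in week 2 and 20791 ± 494 in week 7, or 1.99% to 2.00%, 2.38% and 2.05% to 2.09% of all counts. With total counts in place of TMM, the week 2 sum was 1.19-fold that of week 0 and the week 7 sum 1.04-fold. Larger differences were found for single subfamilies and members. Per kilobase of exon, the scale used here to compare genes, Cyp2e1 ranked first at every week with 2755, 2235 and 2913 CPM per kb. Cyp3a11 (888) and Cyp2f2 (782) followed at week 0 and again at week 7 (806 and 697). At week 2 the places after Cyp2e1 went to Cyp2a4 (1033) and Cyp2c69 (794), which had 1.59 and 0.491 CPM per kb at week 0.

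The most abundant enzymes of week 0, Cyp2e1, Cyp3a11 and Cyp2f2, were called lower at week 2 and were nearer to week 0 at week 7. Cyp2e1, which oxidises ethanol and paracetamol, had 5994 and 5898 CPM in week 0, 4887 and 4759 in week 2 and 6173 and 6399 in week 7. It was 1.23-fold lower at week 2 than at week 0 (adjusted p = 5.91e-05) and was not called at week 7 (log2 difference 0.08 ± 0.03 (SE), adjusted p = 0.077), a call that was gained without week 7 replicate 1 (adjusted p = 0.0487), with total counts (0.0141) and with no filter on low counts (0.0357). Cyp3a11, the chief drug-oxidising CYP3A of mouse liver, had 4568 and 4481 CPM in week 0, 2764 and 2762 in week 2 and 3969 and 4243 in week 7. It was 1.64-fold lower at week 2 than at week 0 (adjusted p = 8.69e-07). Its week 7 libraries lay between the other 2 weeks without overlap, 1.10-fold below week 0 (adjusted p = 0.0219). Pairs of adjusted p-values for such refits give replicate 1 first. That call was lost without either week 0 library (0.134, 0.0780), without either week 2 library (0.0519, 0.0561) and without week 7 replicate 1 (0.0745), and also with total counts (0.0614) or only the 4 libraries compared (0.0706). Cyp2f2, the periportal member, which bioactivates naphthalene, went from 1577 and 1590 CPM to 918 and 916 and then to 1421 and 1401, which was 1.73-fold lower at week 2 (1.18e-07) and 1.12-fold lower at week 7 (0.00414). In bulk RNA fewer cells of a type and less RNA per cell cannot be told apart.

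In Cyp2a, 3 of 4 members were called higher at week 7 than at week 0 and 1 lower, beside 7.58% and 6.23% of all genes. The Cyp2a enzymes hydroxylate testosterone, coumarin and nicotine. Cyp2a5, the coumarin 7-hydroxylase, had 476 and 531 CPM in week 0, 844 and 857 in week 2 and 1097 and 1073 in week 7. It was higher at each later week without overlap between weeks, by 1.69-fold at week 2 (adjusted p = 1.17e-05) and 2.16-fold at week 7 (2.96e-06), and it was the only Cyp2a member higher at week 7 than at week 2 (1.28-fold, 0.00128). Cyp2a4, the testosterone 15-alpha-hydroxylase known to be higher in females, had 1.78 and 3.75 CPM in week 0, 1808 and 1782 in week 2 and 48.4 and 50.9 in week 7. The 3 weeks were far apart: the level was 649-fold higher at week 2 (0.00300) and 17.9-fold higher at week 7 (0.0171) than at week 0.

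The Cyp2a4 call at week 7 was lost with either week 7 library left out (adjusted p = 0.0978 for replicate 1, 0.0956 for replicate 2) and with either week 2 library left out (0.0701, 0.0687), while its log2 difference stayed between 4.13 and 4.20 in those fits. Without week 0 replicate 2 it was 4.80 in place of 4.17. Against week 2 it was 36.2-fold lower at week 7 (0.00733), and that call was lost without either week 2 replicate (0.0535 and 0.0507) or either week 7 replicate (0.0744 and 0.0755). Cyp2a22 followed with 1.74 ± 0.417, 97.5 ± 3.56 and 5.85 ± 0.104 CPM at weeks 0, 2 and 7, 3.37-fold higher at week 7 than at week 0 (0.000102). Cyp2a12 was 1.12-fold higher at week 2 (0.00806) and 1.18-fold lower at week 7 (0.00206); the first call was lost without week 0 replicate 2 (0.0627) or week 2 replicate 1 (0.0909). The subfamily summed to 1193 ± 32.6, 3513 ± 32.5 and 1722 ± 21.6 CPM, and Cyp2a4 made up 0.232%, 51.1% and 2.88% of it. Since Cyp2a4 and Cyp2a5 are near copies, their sum is also given: 506 ± 40.4, 2646 ± 9.26 and 1135 ± 14.7 CPM.

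The Cyp2b members, which oxidise barbiturates and steroids, were nearly silent at week 0 and highest at week 2. Cyp2b9, known to be higher in females, had 1.26 and 1.14 CPM in week 0, 384 and 386 in week 2 and 30.3 and 29.9 in week 7. It rose 320-fold by week 2 (adjusted p = 4.06e-11) and was 25.1-fold above week 0 at week 7 (4.33e-09), a call kept under each alternative tried here. Cyp2b13, whose upstream region printed above differs from that of Cyp2b9 at 2 bases, had 0 and 16 deposited counts at week 0 and 957 and 890 at week 7. In CPM these were 0.166 ± 0.235 and 17.6 ± 0.226, with 152 ± 5.66 at week 2, so that it was 106-fold higher at week 7 than at week 0 (0.0193), a ratio that rests on about 4 read pairs at week 0. Without week 0 replicate 1 the log2 difference was 5.72 in place of 6.73, and without replicate 2 week 0 was at 0. That call was lost without either week 2 library (0.0648, 0.0662) and without either week 7 library (0.0986, 0.0963). Against week 2 its week 7 level was 8.64-fold lower (0.0319), which was lost without either week 2 library (0.123, 0.126) or either week 7 library (0.166, 0.177), with DESeq2 (0.149) and with no filter (0.0501).

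Cyp2b10, the classic target of CAR, was unlike its neighbours only in the order of weeks 7 and 0, where its difference was not called. Like them, it was called higher at week 2 than at week 0 and lower at week 7 than at week 2. It had 99 and 68 counts in week 0, 1408 and 1371 in week 2 and 17 and 0 in week 7, or 1.70 ± 0.406, 23.3 ± 0.239 and 0.157 ± 0.223 CPM. Its 2 week 7 libraries were the lowest of the 6, while those of Cyp2b9 and Cyp2b13 stood above week 0. The 10.8-fold difference between weeks 7 and 0 was not called (adjusted p = 0.0914). It was called lower with counts divided by 4 (0.00524), without week 7 replicate 1 (0.000526) and without week 7 replicate 2 (0.00447). The size rests on about 4 read pairs in 1 week 7 library: without replicate 2 the log2 difference was -2.42 in place of -3.38, and without replicate 1 week 7 was at 0. The 13.7-fold rise by week 2 (0.0263) lost its call without either week 0 library (0.144, 0.166) or either week 2 library (0.130, 0.128), with DESeq2 (0.0682) and with no filter (0.0698). At week 7 it was 148-fold below week 2 (0.00853), a call lost without either week 2 library (0.0554, 0.0549), and without week 7 replicate 2 its log2 difference was -6.20 in place of -7.16. As a share of the Cyp2b sum, which was 3.06, 560 and 47.8 CPM at weeks 0, 2 and 7, Cyp2b10 went from 55.4% to 4.16% and 0.329%.

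**Figure D2:**
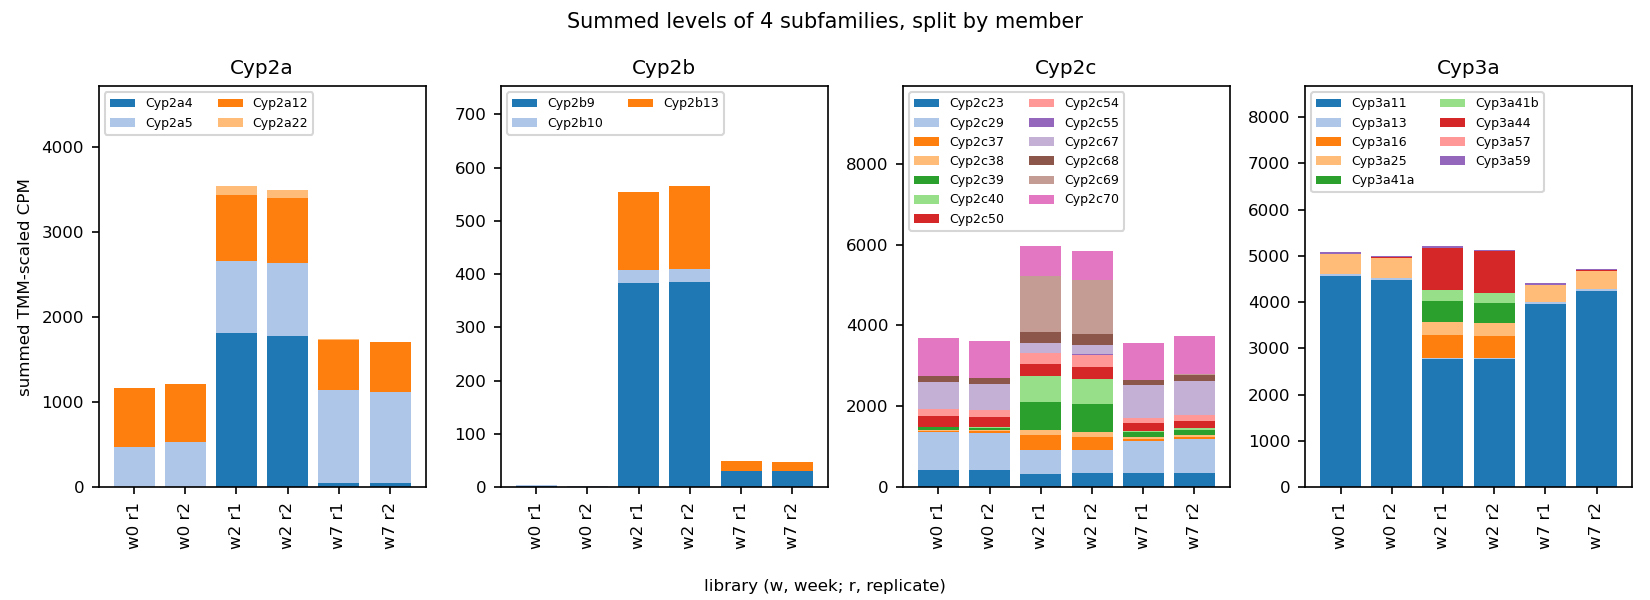
Summed TMM-scaled CPM of Cyp2a, Cyp2b, Cyp2c and Cyp3a in each library (w, week; r, replicate), stacked by member on linear axes that start at 0. Cyp3a keeps its total between 4405 and 5202 CPM while its members change, Cyp2a and Cyp2b are highest at week 2 and stay above week 0 at week 7, and the 2 libraries of each week look alike.

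Cyp2c enzymes oxidise arachidonic acid, retinoids and many drugs. At week 7, 7 of 13 members were called higher than at week 0 and 4 lower, beside 7.58% and 6.23% of all genes. The higher ones were Cyp2c37, Cyp2c38, Cyp2c39, Cyp2c40, Cyp2c55, Cyp2c67 and Cyp2c69. Cyp2c55 had 1.16 and 0.829 CPM in week 0, 5.09 and 4.78 in week 2 and 6.32 and 4.24 in week 7. It was 5.30-fold higher at week 7 (adjusted p = 0.000962) and 4.95-fold higher at week 2 (0.000706), and its weeks 2 and 7 overlapped. Cyp2c39, which hydroxylates retinoic acid, went from 65.3 ± 0.934 to 136 ± 5.93 CPM (2.09-fold, 1.40e-06) and reached 691 ± 6.61 at week 2. Cyp2c37 and Cyp2c38 rose 1.59-fold and 1.86-fold by week 7 (0.000180 and 0.000717). By week 7 Cyp2c54 fell 1.37-fold (0.00355), Cyp2c50 1.30-fold (0.000584), Cyp2c23 1.21-fold (0.000959) and Cyp2c29 1.14-fold (0.00926; 0.0674 without week 0 replicate 1). Cyp2c50 and Cyp2c54, near copies of each other at 95.2% coding identity, were higher at week 2 than at week 0 by 1.21-fold and 1.68-fold. Cyp2c37, the nearest copy of Cyp2c50 at 96.1%, was 10.9-fold higher at week 2 and, unlike Cyp2c50 and Cyp2c54, also higher at week 7.

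Among 4 near copies in Cyp2c, which may share reads, Cyp2c69, Cyp2c40 and Cyp2c68 were highest at week 2, and Cyp2c67 was lowest there. Cyp2c69 had 0.661 and 1.02 CPM in week 0, 1379 and 1333 in week 2 and 4.43 and 5.30 in week 7. It was 1617-fold higher at week 2 (adjusted p = 9.74e-05) and 5.80-fold higher at week 7 (0.00696) than at week 0. Cyp2c40 showed the same order at a higher base, with 18.7 ± 1.89, 620 ± 10.3 and 29.1 ± 0.930 CPM, 1.56-fold above week 0 at week 7 (0.000409). Cyp2c67 ran the other way at week 2, with 661 and 658 CPM in week 0, 259 and 243 in week 2 and 805 and 851 in week 7, which was 2.63-fold lower (6.22e-08) and then 1.26-fold higher (0.00121) than at week 0. Cyp2c68 had 144 ± 7.61, 261 ± 2.85 and 147 ± 9.71 CPM and was not called between weeks 7 and 0 (0.831). Summed, the 4 copies had 823 ± 7.33, 2489 ± 56.4 and 1009 ± 43.3 CPM. Cyp2c70, which makes the rodent muricholic acids, was 1.28-fold lower at week 2 (0.000171) and stood at 931 ± 14.3 and 921 ± 35.3 CPM at weeks 0 and 7 (0.856). The whole subfamily summed to 3651 ± 47.7 CPM in week 0, 5894 ± 83.1 in week 2 and 3645 ± 125 in week 7.

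The Cyp2d subfamily holds the mouse counterparts of human CYP2D6. Of its 7 members, 1 was called higher at week 7 than at week 0 and 0 lower, beside 7.58% and 6.23% of all genes. Cyp2d9, the testosterone 16-alpha-hydroxylase known to be higher in males, had 670 and 644 CPM in week 0, 10.9 and 14.1 in week 2 and 633 and 736 in week 7. Its week 7 libraries spanned those of week 0 (log2 difference 0.06 ± 0.15 (SE), adjusted p = 0.868), and week 2 was 52.6-fold lower than week 0 (0.000285). Cyp2d10 was the called member, 1.11-fold higher at week 7 than at week 0 (0.0468). That call held by a narrow margin: it was lost without any single library, at adjusted p of 0.263 and 0.0511 for the week 0 libraries (replicate 1 first), 0.0660 and 0.0700 for those of week 2, and 0.196 and 0.0769 for those of week 7. It was also lost with upper-quartile scaling (0.0959) and with only the 4 libraries compared (0.0693). Cyp2d22 was not called against week 0 (0.0852), but was called higher without week 0 replicate 1 (0.0485) or week 7 replicate 2 (0.0329) and with total counts (0.0487). It was 1.29-fold higher at week 7 than at week 2 (0.00730), which was lost without week 2 replicate 1 (0.0538). Cyp2d40 was 1.35-fold lower at week 2 (0.0104), lost without week 0 replicate 1 (0.0728) or week 2 replicate 1 (0.0686). Cyp2d26, at 577 ± 67.2, 619 ± 6.42 and 575 ± 18.5 CPM, was called in none of the 3 comparisons, and only without week 0 replicate 1 was it called higher at week 2 (0.0187). Cyp2d11 and Cyp2d12 had at most 2.11 CPM and were not called. The subfamily summed to 2361 ± 76.8, 1480 ± 6.53 and 2527 ± 4.80 CPM.

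In Cyp3a the makeup changed more than the total. The 9 members summed to 5039 ± 53.1 CPM in week 0, 5163 ± 55.5 in week 2 and 4562 ± 222 in week 7, and Cyp3a11 made up 89.8%, 53.5% and 90.0% of the sum. Cyp3a16, a steroid-oxidising member known from fetal and female liver, had 0 and 9 counts in week 0, 29533 and 28313 in week 2 and 643 and 691 in week 7. In CPM this was 0.0933 ± 0.132, 485 ± 10.3 and 12.7 ± 1.13, so week 7 was above week 0 in both libraries, 136-fold with an exact 95% counting interval of 42.8 to 1293 (adjusted p = 0.0111). The interval is that of read pairs, at about 4 deposited counts each, and covers counting error only. Without week 0 replicate 1 the log2 difference was 6.07 in place of 7.08, and without replicate 2 week 0 was at 0. The call was lost without week 7 replicate 1 (0.0684) or 2 (0.0734). It was 38.2-fold lower at week 7 than at week 2 (0.00516), a call lost without those same week 7 libraries (0.0571 and 0.0616).

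The other Cyp3a members that are higher in females had no call between weeks 7 and 0, apart from the refits named here. Cyp3a44 had 8.53 and 12.9 CPM in week 0, 919 and 896 in week 2 and 8.13 and 8.53 in week 7. It was 84.7-fold higher at week 2 (adjusted p = 0.000962) and not called at week 7 (0.426), where without week 0 replicate 1 it was called lower (0.000442). Cyp3a41a and Cyp3a41b summed to 0.308 ± 0.209, 669 ± 20.8 and 0.937 ± 0.251 CPM. Taken singly, Cyp3a41a was 1434-fold higher at week 2 (0.000672) and not called at week 7 (0.513). Cyp3a41b had 0 counts in both week 0 libraries, which allows up to 0.245 CPM (3 read pairs, or 12 deposited counts, per library). It was at least 928-fold higher at week 2 (0.0232). At week 7 Cyp3a41b had 8 and 37 counts, or 0.148 and 0.724 CPM, and was not called (0.281). Replicate 1 of week 7 lies under the 0.245 CPM allowed for week 0, so no lower bound holds for both libraries. The week 7 mean was 1.78-fold that limit. A call of higher was gained without week 7 replicate 1 or 2, and with DESeq2 (0.00153). Its week 2 call was lost without either week 0 library (0.0598, 0.0575) and without either week 2 library (0.170, 0.166). At week 7 it was 521-fold below week 2 (0.0253), lost without either week 2 library (0.175, 0.169).

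The remaining Cyp3a members were Cyp3a57, Cyp3a25, Cyp3a13 and Cyp3a59. Cyp3a57 had 24 and 53 counts at week 2 and 0 in the other 4 libraries. It was at least 2.65-fold higher at week 2 than at week 0 (adjusted p = 0.0487) and at least 2.83-fold higher at week 2 than at week 7 (0.0447). The first call was lost without either week 0 library (0.125, 0.123) and without either week 2 library (0.145, 0.315), the second without either week 2 library (0.137, 0.298) or either week 7 library (0.129, 0.128). Cyp3a25 had 442 ± 6.27, 274 ± 6.89 and 376 ± 23.5 CPM and was 1.61-fold lower at week 2 (1.54e-05) and 1.18-fold lower at week 7 (0.0130) than at week 0. The week 7 call was lost without either week 0 library (0.0540, 0.0797) or week 7 replicate 1 (0.0634). Cyp3a13 was called only between weeks 7 and 2 (1.30-fold lower, 0.0200), lost without either week 2 library (0.0895, 0.0872) or week 7 replicate 1 (0.112). Cyp3a59 stood at 28.0 ± 1.92, 26.9 ± 0.268 and 29.2 ± 0.504 CPM with no call.

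**Figure D3:**
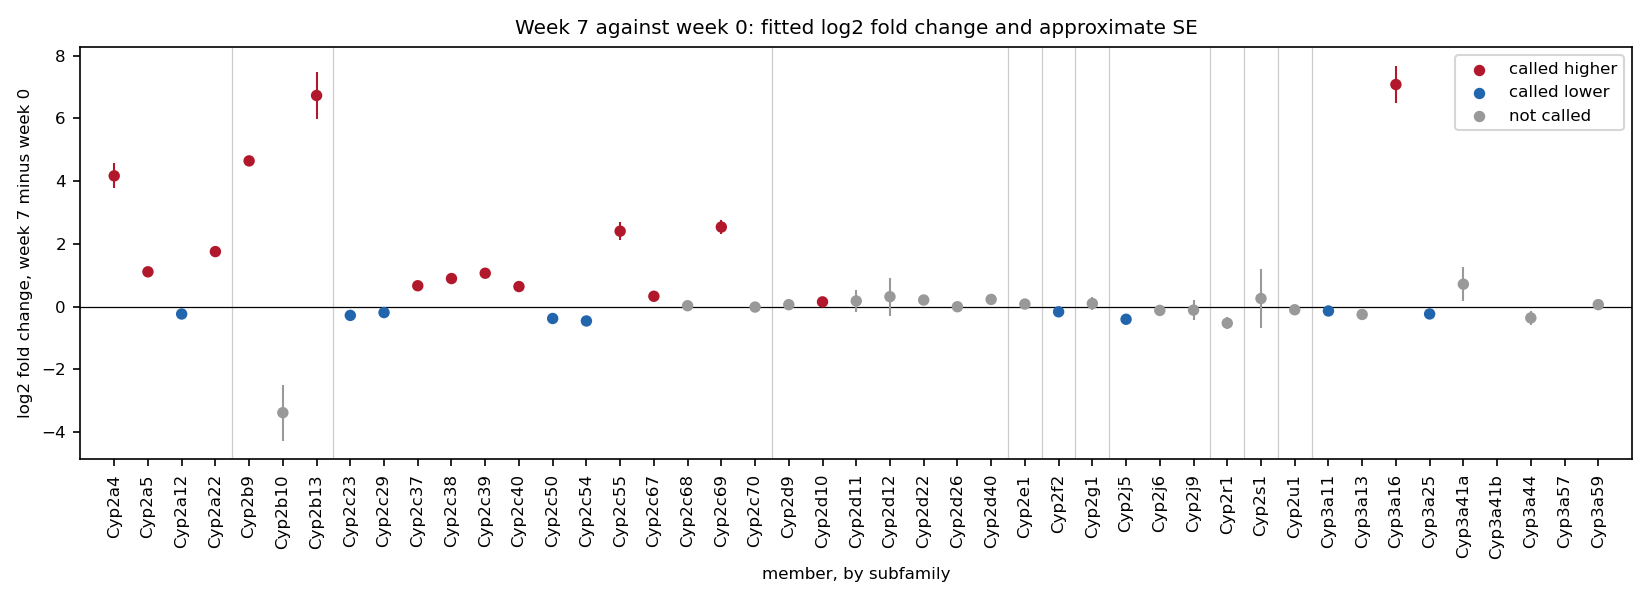
Fitted log2 fold change of each member, week 7 minus week 0, with an approximate standard error taken from the F statistic; colours give calls at an adjusted p under 0.05. Cyp3a41b and Cyp3a57 had 0 counts in both week 0 libraries and are not drawn, all 9 members called lower lie close below 0, down to -0.46, and 9 of the 14 called higher lie above 1.

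The Cyp2g, Cyp2j, Cyp2r, Cyp2s and Cyp2u subfamilies held 7 members. Cyp2u1, a fatty acid hydroxylase, had 62.4 and 60.3 CPM in week 0, 3.57 and 5.37 in week 2 and 59.6 and 54.8 in week 7. It was 13.7-fold lower at week 2 (adjusted p = 2.28e-05) and not called between weeks 7 and 0 (0.777), so its week 2 libraries, like those of Cyp2d9, were the low ones. Cyp2g1, a member of olfactory mucosa, was 4.33-fold higher at week 2 (3.64 ± 0.747 to 15.7 ± 0.301 CPM, 0.000177). Omp, the olfactory neuron marker, had 0.180 and 0 CPM in week 0, 0 in both week 2 libraries, and 0.0741 and 0.293 in week 7, and its part in the Cyp2g1 difference was not tested. Cyp2j5, an arachidonic acid epoxygenase, fell 1.32-fold by week 7, from 599 ± 30.9 to 453 ± 16.6 CPM (0.000538). Its 1.11-fold difference at week 2 was not called (0.0547), but was called lower without week 0 replicate 2 (0.0392) or week 7 replicate 2 (0.0496), with no filter (0.0348) and with counts divided by 4 (0.0369). Cyp2r1, a vitamin D 25-hydroxylase, was 1.68-fold lower at week 2 (0.0337), lost without week 0 replicate 2 (0.192) and without either week 2 library (0.0913, 0.173), and with total counts (0.0515). Cyp2j9 was 2.12-fold lower at week 2 (0.0484), a call lost without any single library of the 6 (0.0569 to 0.238) and with total counts (0.0647), upper-quartile scaling (0.0539) or only the 4 libraries compared (0.0671). Cyp2j6 (61.6 to 67.0 CPM by week) and Cyp2s1 (0.368 to 0.700) had no call.

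Groups known for sex or zone can be set beside these values. Of 7 members known to be higher in females (Cyp2a4, Cyp2b9, Cyp2b13, Cyp3a16, Cyp3a41a, Cyp3a41b and Cyp3a44), all 7 were called higher at week 2 than at week 0, where the week 2 libraries carried Xist. Over all genes 9.81% were called higher there. Cyp3a16 and Cyp3a41b met the count minimum only through a later week, so they could hardly be called lower than at week 0. Reads of Cyp3a41a and Cyp3a41b can hardly be separated, so these genes are not independent of each other in the counts and the median. At week 7, with Xist at 0 counts, 4 of the 7 were called higher than at week 0 and 0 lower. Over all genes 7.58% were called higher and 6.23% lower. The median log2 difference over the 7 was 4.64, or 4.17 with the week 0 level of Cyp3a41b put at its limit, beside 0.00 over all genes. All 7 were called lower than at week 2, beside 9.73% of all genes. Those called higher than at week 0 numbered 2 without either week 7 library, where Cyp2a4, Cyp2b13 and Cyp3a16 were lost and Cyp3a41b was gained, and 2 without either week 2 library, where Cyp2a4 and Cyp2b13 were lost. Without week 0 replicate 1, Cyp3a44 was called lower. Cyp2d9, the only member listed as higher in males, was not called between weeks 7 and 0. Outside these families, Cyp4a12a and Cyp4a12b, also known to be higher in males, were called lower at week 7 (values below). Of 7 pericentral members, 2 rose by week 7 (Cyp2a5 and Cyp2c37), 4 fell (Cyp2c29, Cyp2c50, Cyp2c54 and Cyp3a11) and Cyp2e1 was not called, with a median log2 difference of -0.14. Over all genes, as above, 7.58% were called higher and 6.23% lower. The 4 that fell were 2 without week 0 replicate 1, where Cyp2c29 and Cyp3a11 lost their calls. The periportal Cyp2f2 fell as well.

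Among 5 growth hormone axis factors, Cux2, a repressor found in female liver, had 0 and 0.166 CPM in week 0, 54.6 and 54.9 in week 2 and 1.20 and 0.450 in week 7. The week 7 difference from week 0 was not called (adjusted p = 0.157; called higher with counts divided by 4, 0.0395), while that at week 2 was (0.00568). Bcl6, a repressor higher in male liver, had 44.0 ± 3.93, 2.74 ± 0.344 and 31.4 ± 1.03 CPM, 16.0-fold lower at week 2 (9.09e-08) and 1.40-fold lower at week 7 (0.0227). The latter call was lost without week 0 replicate 2 (0.152) and without either week 7 library (0.129, 0.0815). Stat5a was higher at both later weeks (1.75-fold and 1.93-fold, 0.0128 and 0.00838), the week 2 call being lost without either week 0 library (0.0596, 0.0513) or week 2 replicate 2 (0.0967). Stat5b and Onecut1 had no call in any comparison; with total counts Onecut1 was called higher at week 2 (0.0368). Of 16 nuclear receptors and liver factors, 6 were called higher and 2 lower at week 7, beside 7.58% and 6.23% of all genes. Without week 0 replicate 1 these were 5 and 0, as Foxa3 (0.131), Nr1h4 (0.0808) and Nr0b2 (0.0514) lost their calls. Omitting week 7 replicate 1 left Nr1h4 (0.108) and Foxa3 (0.119) without a call, and omitting week 0 replicate 2 left Nr1h4 without one (0.105). CAR (Nr1i3) had 75.0 ± 0.817, 85.9 ± 0.654 and 71.4 ± 3.40 CPM and PXR (Nr1i2) 65.7 ± 0.252, 101 ± 3.25 and 70.6 ± 3.15. Neither was called between weeks 7 and 0 (0.545 and 0.348), and PXR was 1.54-fold higher at week 2 (0.000192). The pioneer factors Foxa1 and Foxa2 were 2.02-fold and 2.16-fold higher at week 7 (0.000370 and 0.000155), and Nr0b2, a repressor of other receptors, was 1.43-fold lower (0.00763), lost also without week 7 replicate 2 (0.0524).

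**Figure D4:**
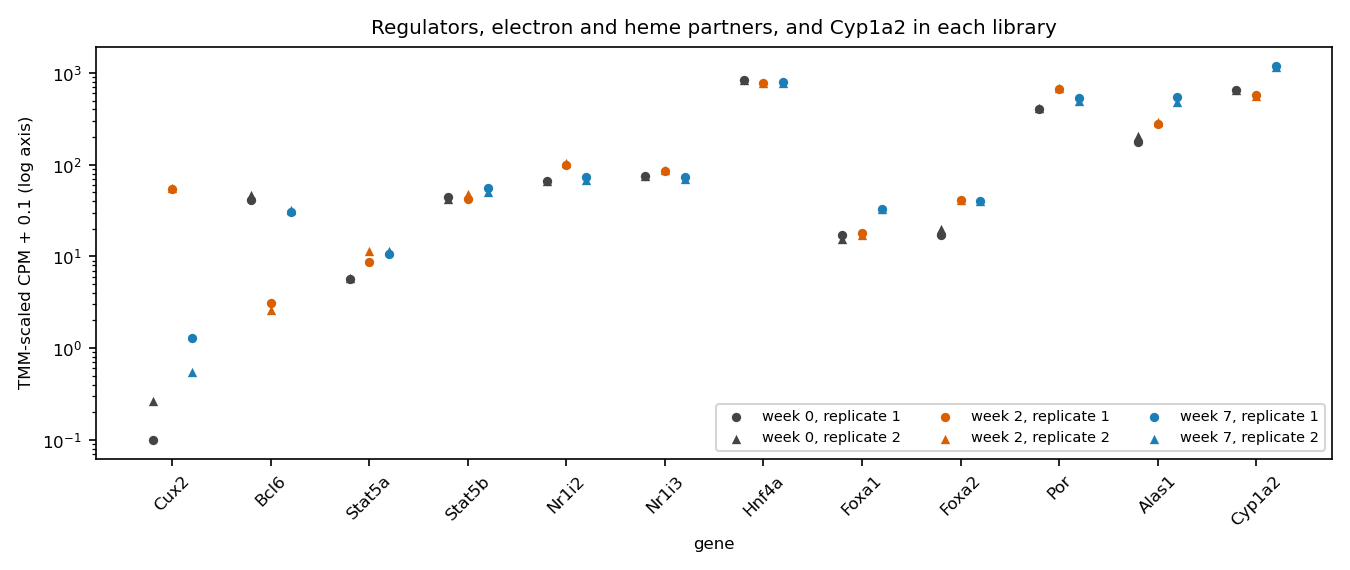
TMM-scaled CPM plus 0.1 (log axis) of regulators, the partners Por and Alas1, and Cyp1a2 in each of the 6 libraries, with 1 point per library. Cux2 and Bcl6 at week 2 lie apart from the other 4 libraries in opposite directions, and Alas1 and Cyp1a2 are highest in both week 7 libraries.

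Of 12 other target genes of CAR and PXR, 4 were called higher and 4 lower at week 7 than at week 0, beside 7.58% and 6.23% of all genes. The higher ones were Por, Alas1, Abcc2 and Akr1b7, and the lower ones Ugt1a1, Abcc3, Aldh1a1 and Aldh1a7. The call of Ugt1a1 was lost without either week 0 library (0.124, 0.145), without either week 2 library (0.0537, 0.0514) and with only the 4 libraries compared (0.0529), and that of Aldh1a1 without week 0 replicate 1 (0.0628), which left 2 called lower. Alas1, the rate-limiting enzyme of heme synthesis, rose from 190 ± 18.5 to 286 ± 11.8 CPM at week 2 and 513 ± 38.1 at week 7 (2.70-fold, adjusted p = 0.000117). Por rose from 408 ± 6.66 to 682 ± 15.2 and 513 ± 26.9 CPM (1.26-fold at week 7, 0.00130). Among the 7 electron and heme partners, Cyb5b rose with them at week 7 (1.28-fold, 0.000507), Pgrmc1 and the heme-degrading Hmox1 fell (1.37-fold, 2.53e-05, and 1.89-fold, 0.000248), and Cyb5a and Cyb5r3 were not called. For families 1 and 4, 5 of 16 members were called higher and 3 lower at week 7, beside the same shares. Those called higher numbered 2 without week 0 replicate 2, where Cyp1a1 (0.0535), Cyp4a31 (0.102) and Cyp4f16 (0.159) were lost, and 3 without week 0 replicate 1, without week 7 replicate 1 and with only the 4 libraries compared. Those called lower numbered 1 without week 0 replicate 1, where Cyp4a12b (0.0632) and Cyp4v3 (0.162) were lost. Cyp4v3 was also lost without week 0 replicate 2 (0.117), either week 2 library (0.0714, 0.0753) or week 7 replicate 1 (0.153), with total counts (0.0941) and with only the 4 libraries compared (0.0801). Cyp1a2, a pericentral enzyme of caffeine breakdown, rose from 656 ± 1.24 to 1172 ± 37.2 CPM (1.79-fold, 1.40e-06), while Cyp4a12a and Cyp4a12b, known to be higher in males, fell 1.31-fold and 2.16-fold (0.000732 and 0.00920).

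Markers of liver cells also moved between the same weeks. Over all genes, 7.58% were called higher and 6.23% lower at week 7 than at week 0, and 9.81% and 8.81% at week 2. Of the 4 hepatocyte markers, Alb, Ttr and Tat were called lower at week 7 than at week 0, and at week 2 Alb was called higher and Apoa1, Ttr and Tat lower. Summed over 6 Kupffer cell genes, the level was 334 to 339 CPM at week 0, 450 to 454 at week 2 and 240 to 242 at week 7, and 6 of 6 were called lower at week 7 than at week 0. Without week 0 replicate 1 these were 3, as Timd4 (0.147), Cd5l (0.0631) and Vsig4 (0.0688) lost their calls, and without week 7 replicate 1 they were 4 (Timd4, 0.167, and Vsig4, 0.0546, lost). Timd4 also had no call with week 0 replicate 2 (0.0743) or either week 2 library (0.0567, 0.0577) left out, or with only the 4 libraries compared (0.0626). The 5 stellate cell genes summed to 209 to 213, 267 to 269 and 145 to 155 CPM (3 lower and 1 higher at week 7), the 4 endothelial genes to 146 to 158, 181 to 185 and 133 to 135 (1 lower), and the 4 bile duct genes to 3.92 to 4.63, 6.72 to 9.74 and 6.93 to 7.73 (1 higher, Krt19). Their part in the P450 differences was not tested.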

How the data were processed

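Poly-A RNA-seq of mouse liver cells gave 6 libraries, 2 each at weeks 0, 2 and 7. The deposited table holds estimated counts per gene, which are whole numbers, so that rounding changed 0 values. Low values peak at multiples of 4, so 1 read pair was taken as about 4 deposited counts. The columns of week 2 are named in days in the table and were matched to the week 2 titles. Per the labels' protocols, libraries were made with TruSeq V2 and read as paired ends, and per the submitters' processing notes the authors used Bowtie 0.12.2 and mm8. Not given in the sources used here are the counter, the annotation and the handling of reads that fit several genes, and gene coordinates of the authors' build are not printed. GENCODE M21 gave symbols for 54409 of 54446 genes, exon lengths and coding sequences, and the RefSeq table (GRCm38.p6) gave promoters.

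Genes passing edgeR's filterByExpr (15368) were tested with edgeR 4.0.16 (R 4.3.3), TMM factors and the robust quasi-likelihood F test over all 6 libraries with 1 coefficient per week, 2-sided, with Benjamini-Hochberg adjustment and a threshold of 0.05. This leaves 3 residual degrees of freedom, and the common biological coefficient of variation was 0.209. Standard errors were taken from the fold change and its F statistic. A count of 0 was given a limit of 3 read pairs (12 deposited counts) per library, and intervals (95%, exact, conditional binomial on read pairs) cover counting error only. The fit was also run on simulated counts, drawn with the same spread between libraries for every gene. That run cannot bear on the calls of members with few counts. The members and gene lists were chosen with earlier results of these data known. Full statistics were to be given for well-known members (such as Cyp2e1, Cyp2b10 and Cyp3a11) and, per comparison, for the 6 higher and 6 lower called members of largest fold change with groups that do not overlap and at least 1 CPM in the higher group. Alternatives were median-of-ratios, upper-quartile and total-count scaling, no filter, DESeq2 1.42.0, only the 4 libraries compared, a replicate block, counts divided by 4, and leaving out each library.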

Additional observations from a re-analysis of the deposited data

How the results depend on the processing

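The counts of members called kept within 1.5 times of their values under every alternative: 11 to 16 higher and 7 to 10 lower for week 7 against week 0, 18 to 22 and 11 to 15 for week 2 against week 0, and 12 to 13 and 16 to 22 for week 7 against week 2. Leaving out 1 library gave 11 to 14 and 7 to 10, 18 to 22 and 11 to 14, and 12 to 13 and 16 to 22. Where that left 1 library in a week, the lone library was assumed to vary like the others. Same-numbered replicates did not deviate together over all genes tested (r of -0.0019, -0.0146 and -0.0130 over 15368 genes). A correlation over all genes cannot show a link confined to some of them. With the replicate block, members called were 11 higher and 9 lower, 19 and 13, and 13 and 19, in the same order. It lost the week 7 against week 0 calls of Cyp2a4 (0.0545), Cyp2b13 (0.0717) and Cyp2d10 (0.0911), as adjusted p. Those lost at week 2 against week 0 were Cyp2b10, Cyp2j9, Cyp3a41b and Cyp3a57, and at week 7 against week 2 Cyp2b13, Cyp3a41b and Cyp3a57.

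Signs turned only for members that were not called. As log2 differences for week 7 against week 0, with total counts Cyp2c70 was 0.021 and Cyp2d26 0.032, with only the 4 libraries compared Cyp2d26 was 0.0019, and with the replicate block Cyp3a57 was 0.0053. For week 2 against week 0, total counts gave 0.070 for Cyp2j6 and 0.033 for Cyp3a59, and upper-quartile scaling 0.010 for Cyp2j6. Leaving out 1 library gave, for week 7 against week 0, -0.040 to 0.095 for Cyp2c68, -0.053 to 0.025 for Cyp2c70, -0.051 to 0.17 for Cyp2d9, -0.12 to 0.12 for Cyp2d26, -0.13 to 0.32 for Cyp2g1, -0.32 to 0.13 for Cyp2j9, -0.38 to 1.42 for Cyp2s1 and -0.0045 to 0.13 for Cyp3a59. For week 2 against week 0 it gave -1.20 to 0.47 for Cyp2d12, -0.011 to 0.23 for Cyp2d26, -0.078 to 0.035 for Cyp2j6, -1.93 to 0.50 for Cyp2s1 and -0.13 to 0.012 for Cyp3a59. For week 7 against week 2 it gave -0.22 to 0.36 for Cyp2c55, -0.16 to 1.52 for Cyp2d12 and -0.027 to 0.43 for Cyp2r1. The causes were not tested. At about 4 deposited counts per read pair, members with few counts rest on few molecules, and their folds are imprecise.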

Other observations

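Pseudogenes of both families, which are not among the members, also had counts. For Cyp3a63-ps these were 0 and 0 (week 0), 229 and 199 (week 2), and 9 and 0 (week 7). Cyp2d37-ps had 868 and 895, then 786 and 691, then 1045 and 825 counts.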
